A study of Homo sapiens with 12 samples.

Results

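The endoplasmic reticulum (ER) chaperones and the genes of ER-associated degradation were followed in LNCaP, a human prostate cancer line derived from a metastasis. The set holds 32 genes, matched to the arrays by gene symbol. They are 11 chaperones and their partners, 4 disulfide isomerases and 10 degradation genes. The rest are 3 genes grouped as stress sensors and 4 genes of the translocation channel or its surroundings. A probe was found for 31 of the 32, and HERPUD1 was not analysed here. A filter on low values was passed by 28 of the set and left 12420 genes in all. Proteins bound for secretion or the cell surface enter the ER through the SEC61 channel, are folded by lumenal chaperones and are cross-linked by disulfide isomerases. Chains that fail to fold are drawn back to the cytosol, ubiquitinated and degraded. The transmembrane sensors IRE1 (the product of ERN1), ATF6 and PERK report the load of unfolded chains, and the transcription factors XBP1, ATF6 and ATF4 then raise the genes of folding and disposal. Secretory cells such as prostate luminal epithelium run this system continuously.

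Cells were given either of 2 plasmids, pcDNA3.1_GFP as the control or pcDNA3.1_FoxA1, which carries the FOXA1 cDNA, with Lipofectamine2000 as the transfection reagent, and RNA was taken after 48 h in both groups. The comparison asks what extra FOXA1, a pioneer transcription factor of prostate epithelium, does to gene expression in this line. Each group had 6 Illumina bead arrays, named here by plasmid and by the replicate number in the title (FOXA1 1 to FOXA1 6, GFP 1 to GFP 6). The transfection was transient, the labels give no share of transfected cells, and nothing in them says if a replicate was its own culture. The p-values thus cover the variation among these 12 arrays, part or all of which may be technical. Values are normalised log2 intensities, in which a difference of 1 is a 2-fold change. No gene's level is set against that of another gene, because probes differ in brightness.

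Before normalization, the share of probes brighter than background ran from 32.8% to 36.4% by array. FOXA1 itself lay between 13.29 and 13.62 in the FOXA1 arrays (median 13.41) and between 13.01 and 13.48 in the GFP arrays (median 13.35), so the groups overlapped. Its difference was 0.13 (95% interval -0.066 to 0.32; two-sided exact permutation p = 0.165, n = 6 against 6). A rise in FOXA1 was therefore not detected, and whether its probe reads the plasmid's transcript is not known here. All 8 luminal markers measured (KLK3, KLK2, HOXB13, FOLH1, TMPRSS2, KRT8, KRT18 and EPCAM) stood above the background estimate of 7.54, while 0 of 5 basal markers with a probe did, and the basal keratins KRT5, KRT14 and KRT15 lay between 6.72 and 7.26. Of 9 stromal and 7 leukocyte markers, 3 and 4 stood above it. The leukocyte markers above it were CD2, MS4A1, CD68 and CD14. Their mean on an array lay between 7.74 and 7.89 with FOXA1 and between 7.76 and 8.04 with GFP. The collagens COL1A1, COL1A2 and COL3A1 lay at or below it, as did the leukocyte markers PTPRC, CD3E and LYZ (7.37, 6.87 and 7.07). The mean of the kept stromal markers on an array lay between 7.95 and 8.19 in the FOXA1 arrays and between 7.99 and 8.23 in the GFP arrays.

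Many genes of this set are known targets of the unfolded protein response. Some respond through the ER stress response element (ERSE), and its sites are shown here as a sequence feature that part of these promoters hold. The element reads CCAAT, 9 bases of any kind, then CCACG. NF-Y binds its CCAAT box, and ATF6 or XBP1 its CCACG end. Promoter windows ran from 250 bases before to 50 bases after each RefSeq gene start (GRCh38.p14) and were searched on both strands. Of 35116 windows, 27 held an exact ERSE, or 0.0769%, from 25 of 27305 genes. Of the 28 members with a window, 8 held it, namely HSPA5, HSP90B1 (at 2 sites), CALR, CANX, CRELD2, PDIA6, XBP1 and SERP1. The sites are printed below on the strand that reads CCAAT first, with 10 bases on either side and the element in capitals:
HSPA5, chr9:125241381-125241419, minus strand: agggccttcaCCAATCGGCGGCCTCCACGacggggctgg
HSP90B1, chr12:103930206-103930244, plus strand: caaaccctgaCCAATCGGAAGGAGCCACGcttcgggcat
HSP90B1, chr12:103930311-103930349, minus strand: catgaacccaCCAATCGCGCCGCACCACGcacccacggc
CALR, chr19:12938374-12938412, minus strand: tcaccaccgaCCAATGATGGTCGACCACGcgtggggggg
CANX, chr5:179698768-179698806, plus strand: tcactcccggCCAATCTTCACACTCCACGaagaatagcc
CRELD2, chr22:49918544-49918582, minus strand: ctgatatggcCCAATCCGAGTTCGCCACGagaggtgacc
PDIA6, chr2:10812843-10812881, minus strand: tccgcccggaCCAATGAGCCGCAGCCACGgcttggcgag
XBP1, chr22:28800593-28800631, minus strand: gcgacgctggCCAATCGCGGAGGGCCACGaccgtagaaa
SERP1, chr3:150546700-150546738, plus strand: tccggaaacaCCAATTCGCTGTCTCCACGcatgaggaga
The spacer between the fixed ends differed in every site. A match describes the letters of the window and is not evidence of binding in these cells.

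A second form, ERSE-II, reads ATTGG, 1 base of any kind, then CCACG. It stood in 19 of 35116 windows, or 0.0541%, and among the measured members in HYOU1, at 2 sites, and SDF2L1. With the element in capitals, read on the strand opposite to the gene, these sites were:
HYOU1, chr11:119057264-119057294, plus strand: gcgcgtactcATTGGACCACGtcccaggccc
HYOU1, chr11:119057370-119057400, plus strand: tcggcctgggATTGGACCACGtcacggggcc
SDF2L1, chr22:21642104-21642134, minus strand: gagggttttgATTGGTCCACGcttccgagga
The element UPRE (TGACGTGG) was found in 256 windows, or 0.729%, from 0.927% of genes. In the members it stood at HYOU1 alone, where it overlapped the second ERSE-II. The forkhead core TGTTTAC, the letters that FOXA proteins prefer, stood in 1202 windows (3.42%), from 4.19% of genes. It stood in the windows of 0 of the 28 members. No match says only that these letters are not in the window. The whole window of HSPA5, the gene of the master ER chaperone BiP, is given to show the setting of its element, in capitals:
HSPA5, chr9:125241294-125241593, minus strand: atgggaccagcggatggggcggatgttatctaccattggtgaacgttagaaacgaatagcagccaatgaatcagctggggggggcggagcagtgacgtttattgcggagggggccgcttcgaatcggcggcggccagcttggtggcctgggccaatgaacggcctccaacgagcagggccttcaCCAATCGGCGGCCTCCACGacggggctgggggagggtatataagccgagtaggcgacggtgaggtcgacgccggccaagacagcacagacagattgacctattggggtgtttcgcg
If 1 of the 10 fixed letters of ERSE was allowed to differ, 14 of the 28 members held a match, among them DNAJC3, SEL1L and SYVN1. The share was 1.89% of all genes and 1.55% of all windows.

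**Figure D1:**
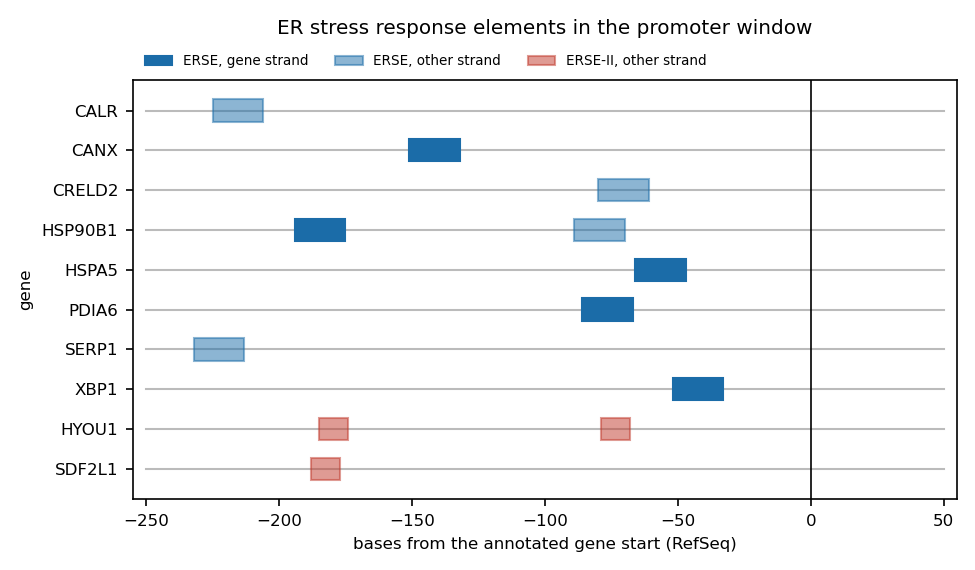
Position of exact ERSE (blue) and ERSE-II (red) sites in the promoter windows of 10 measured members, in bases from the annotated gene start, with paler boxes on the strand opposite to the gene and a grey line for the searched window. For CANX, whose site lies in the windows of 3 annotated starts, the first listed is drawn. The sites begin between 232 bases (SERP1) and 52 bases (XBP1) before the start.

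Between the plasmids, no member passed the test. In limma over all 12420 genes, 0 of 28 members were higher and 0 lower at an adjusted p of 0.05, against 0% of all genes in each direction. At an unadjusted p under 0.05 there were 0 members higher and 1 lower, where 0.757% of all genes were higher and 0.878% lower. In 0 members did the groups fail to overlap, against 0.0322% of genes in each direction. Fitted differences were positive for 18 of 28 members, against 53.8% of all genes, with a median of 0.020 beside 0.0088 over all genes. With median centring in place of the deposited normalization, 66.2% of all genes lay above 0. The 95% interval lay inside 1.5-fold in both directions for 27 of 28 members, against 96.7% of genes, and inside 2-fold for all 28 that passed the filter, against 99.9%.

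**Figure D2:**
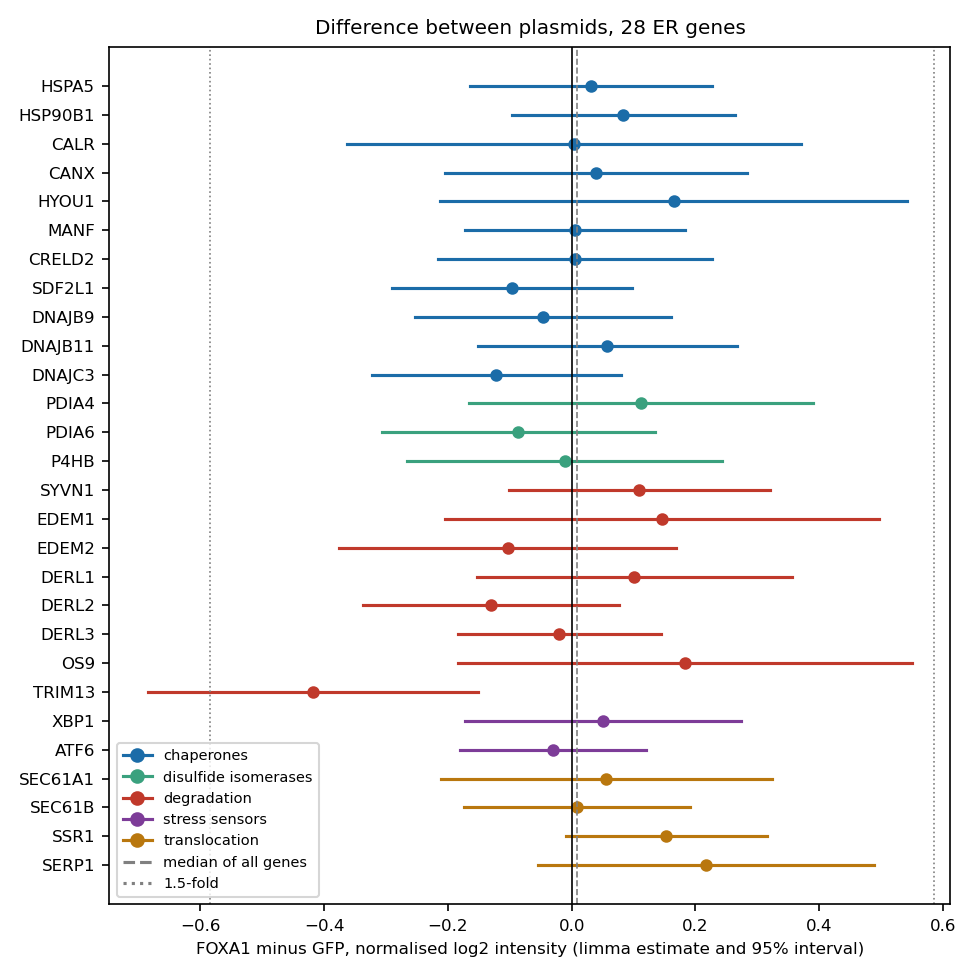
FOXA1 minus GFP in normalised log2 intensity for the 28 members above the filter (dots, limma estimate; lines, 95% interval; colours, role of the gene), with the median of all genes dashed and 1.5-fold dotted. All intervals but that of TRIM13 include 0, and TRIM13 is the 1 member whose interval passes the 1.5-fold line.

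The 11 chaperones and partners stood at nearly the same level in both groups. Their differences ran from -0.12 (DNAJC3) to 0.16 (HYOU1), with 8 above and 3 below 0 and a median of 0.0058. HSPA5, which holds unfolded chains and keeps the sensors inactive, ranged from 8.72 to 9.07 in the FOXA1 arrays (median 8.85) and from 8.64 to 9.02 in the GFP arrays (median 8.87). The groups covered nearly the same range. The difference was 0.031, with a 95% interval of 0.892-fold to 1.17-fold (limma adjusted p = 1.00, as for the other 27 members tested).

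HSP90B1, the ER form of HSP90 known as GRP94, ranged from 13.62 to 13.86 (median 13.70) with FOXA1 and from 13.34 to 13.80 (median 13.66) with GFP, a difference of 0.084 ± 0.085 (SE, n = 6 per group). Its lowest array was GFP 3, without which the difference was 0.027. The lectin chaperones CALR and CANX, which bind sugar-tagged chains, differed by 0.0035 ± 0.17 (SE) and 0.040 ± 0.11 (SE). CALR spread far more inside a group than between groups: it lay between 11.30 and 12.29 (median 11.59) in the FOXA1 arrays and between 11.41 and 12.14 (median 11.62) in the GFP arrays. HYOU1, the large chaperone that exchanges the nucleotide of BiP, ranged from 8.99 to 10.00 (median 9.31) with FOXA1 and from 8.85 to 9.66 (median 9.23) with GFP. It differed by 0.16 ± 0.18 (SE), and its other probe by 0.22 ± 0.23 (SE). With single arrays left out the HYOU1 difference ran from 0.048 (without FOXA1 4) to 0.25 (without FOXA1 2). The second CANX probe differed by 0.10 ± 0.099 (SE).

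The small stress-induced lumenal proteins were as close. MANF, a secreted BiP cofactor, had 13.28 ± 0.16 (SD, n = 6) with FOXA1 and 13.27 ± 0.069 (SD, n = 6) with GFP. CRELD2 had 11.78 ± 0.084 against 11.77 ± 0.25 (SD, n = 6 each), with the GFP values running from 11.41 (GFP 4) to 12.06 (GFP 5). SDF2L1, a partner of the ER J-proteins, had 12.26 ± 0.13 against 12.36 ± 0.17 (SD, n = 6 each), a difference of -0.097. Without FOXA1 3 the SDF2L1 difference was -0.051. The J-proteins, which hand clients to BiP, differed by -0.047 (DNAJB9), 0.058 (DNAJB11) and -0.12 (DNAJC3). DNAJB9 reached 10.15 on FOXA1 5 and on GFP 5 and lay between 9.68 and 9.96 on all other arrays. DNAJB11 lay at 11.78 on GFP 3 and between 12.10 and 12.44 elsewhere. DNAJC3 had 8.04 ± 0.13 with FOXA1 and 8.16 ± 0.18 with GFP (SD, n = 6 each), and its difference was -0.064 without GFP 5.

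Among the disulfide isomerases, PDIA4 ranged from 8.70 to 9.18 (median 8.93) with FOXA1 and from 8.66 to 9.43 (median 8.72) with GFP, and its highest array was GFP 3. The difference was 0.11 ± 0.13 (SE), and with single arrays left out it ran from 0.065 (without FOXA1 3) to 0.23 (without GFP 3). PDIA6 differed by -0.086 ± 0.10 (SE), with FOXA1 4 lowest at 10.02 and all other arrays at 10.24 or above. Without FOXA1 4 the PDIA6 difference was -0.0065. P4HB, the founding isomerase and also a subunit of collagen hydroxylase, had 13.12 ± 0.21 against 13.14 ± 0.24 (SD, n = 6 each). The only PDIA3 probe lay between 6.74 and 7.09 on all arrays, below the background estimate, and says nothing about the gene.

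The degradation genes held the member with the smallest p. TRIM13, a ubiquitin ligase anchored in the ER membrane, lay at 9.25, 9.09, 9.05, 9.09, 9.30 and 9.23 on FOXA1 1 to FOXA1 6 and at 9.64, 9.65, 10.13, 9.16, 9.49 and 9.45 on GFP 1 to GFP 6. The groups overlapped only because GFP 4 fell among the FOXA1 arrays, and 3 of 6 FOXA1 arrays lay below every GFP array. The difference was -0.42 ± 0.13 (SE), with a 95% interval from -0.69 to -0.15, or 0.622-fold to 0.9-fold (limma p = 0.0043, adjusted p = 1.00; exact permutation p = 0.00866, n = 6 against 6, unadjusted). Without GFP 3 it was -0.31 and without GFP 4 it was -0.50. The other TRIM13 probes differed by -0.0022, 0.078 and 0.040 at mean levels of 7.60, 7.52 and 7.82, near background, and averaging the kept probes gave -0.076.

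The lectins that pick out misfolded glycoproteins differed in sign. EDEM1, a mannose-trimming protein, ranged from 9.01 to 9.87 (median 9.29) with FOXA1 and from 8.75 to 9.65 (median 9.14) with GFP, a difference of 0.15 ± 0.17 (SE), and between 0.040 (without FOXA1 3) and 0.24 (without GFP 3) with single arrays left out. EDEM2 differed by -0.10 ± 0.13 (SE), and by between -0.17 (without GFP 1) and -0.015 (without FOXA1 2) with single arrays left out. OS9, which delivers trimmed glycoproteins to the ligase complex, ranged from 7.99 to 8.91 (median 8.37) with FOXA1 and from 7.75 to 8.71 (median 8.20) with GFP, a difference of 0.18 ± 0.17 (SE), and between 0.078 (without FOXA1 4) and 0.29 (without GFP 6) with single arrays left out. The groups overlapped in each of these genes.

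SYVN1, the ubiquitin ligase HRD1 at the heart of the complex, had 10.55 ± 0.22 with FOXA1 and 10.44 ± 0.10 with GFP (SD, n = 6 each). Of its FOXA1 arrays 4 lay above and 1 below every GFP array, and its difference ran from 0.060 (without FOXA1 4) to 0.18 (without FOXA1 2). The derlins, membrane proteins of the exit channel, differed by 0.10 (DERL1), -0.13 (DERL2) and -0.020 (DERL3), of which DERL3 did not stand above background at a mean of 7.53. Without GFP 2 the DERL1 difference was 0.032. The second DERL2 probe differed by 0.077, opposite in sign to the first. SEL1L, the partner of SYVN1, was read by a single probe between 6.82 and 7.48, below the background estimate. Over the 8 degradation genes kept, 4 differences were positive and 4 negative, with a median of 0.040.

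All 4 translocation genes had positive differences, with a median of 0.10, and none passed the test. SSR1, a subunit of the translocon-associated TRAP complex, lay at 11.48, 11.59, 11.57, 11.62, 11.60 and 11.61 on FOXA1 1 to FOXA1 6 and at 11.54, 11.17, 11.43, 11.51, 11.48 and 11.43 on GFP 1 to GFP 6. Thus 5 of 6 FOXA1 arrays stood above every GFP array, FOXA1 1 being the exception. The difference was 0.15 ± 0.077 (SE), with a 95% interval from -0.010 to 0.315 (limma p = 0.0640, adjusted p = 1.00; exact permutation p = 0.00649, n = 6 against 6, unadjusted). Without GFP 2 it was 0.10. The exact permutation p-values of SSR1 and TRIM13 were the smallest among the members, and were printed for that reason. The share of all genes at such values is not given here.

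SERP1, which stabilises membrane proteins at the translocon under stress, had 10.78 ± 0.15 with FOXA1 and 10.57 ± 0.31 with GFP (SD, n = 6 each). The GFP values fell into a low pair, GFP 3 at 10.11 and GFP 2 at 10.23, and 4 arrays between 10.72 and 10.82. The SERP1 difference was 0.22 ± 0.13 (SE), and 0.13 without GFP 3. SEC61A1, the pore itself, differed by 0.056 ± 0.13 (SE), and the small subunit SEC61B by 0.0086 ± 0.086 (SE).

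The group of stress sensors held ATF6, ERN1 and also XBP1, a transcription factor rather than a sensor. Neither ATF6 nor XBP1 passed the test. The sensor PERK is outside the set, and its gene EIF2AK3 is given further below. ATF6 had the smallest SD within groups among the 28 members (0.078), with values between 10.16 and 10.23 in the FOXA1 arrays (median 10.18) and between 10.07 and 10.39 in the GFP arrays (median 10.21), with a difference of -0.030 ± 0.071 (SE). XBP1, whose mRNA is spliced by IRE1, ranged from 12.50 to 12.95 (median 12.81) and from 12.37 to 13.02 (median 12.75), a difference of 0.051 ± 0.11 (SE), with its second probe at 0.0056 ± 0.14 (SE). Whether either probe tells the spliced form of XBP1 from the unspliced is not known here. ERN1 lay between 6.44 and 6.83 on all arrays, below the background estimate.

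**Figure D3:**
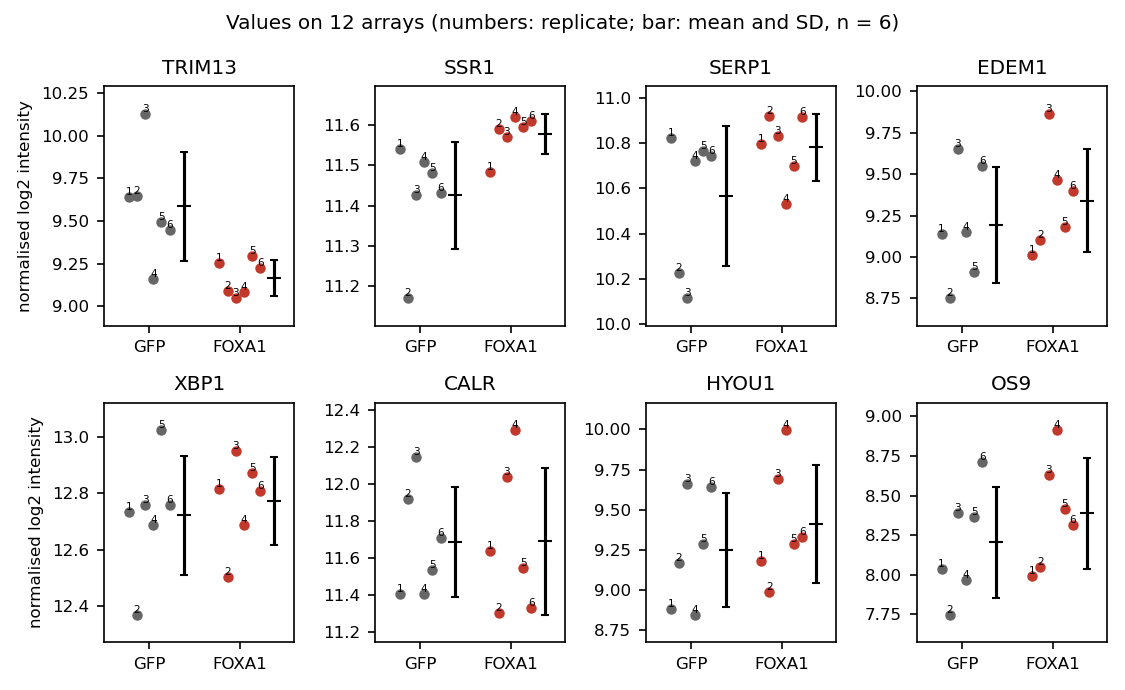
Normalised log2 intensity of 8 members on the 12 arrays, GFP in grey and FOXA1 in red, with the replicate number above each point and the mean with its SD (n = 6) at the right of each group. TRIM13 and SSR1 show the least overlap between plasmids, while CALR, HYOU1 and OS9 span a similar range in each group, with FOXA1 4 highest in all 3.

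The SD within groups exceeded the difference between plasmids for every member above the filter other than TRIM13 and SSR1. Over the 12 arrays 4 of 28 members spanned 2-fold or more, against 10% of all genes: OS9 (2.25-fold), HYOU1 (2.22-fold), EDEM1 (2.17-fold) and TRIM13 (2.12-fold). The median span was 0.64 on the log2 scale, beside 0.59 over all genes. FOXA1 4 was the array farthest above its group mean for 6 members, GFP 5 for 5 and FOXA1 3 for 4, where these arrays held that place for 13.2%, 8.19% and 7.08% of all genes. GFP 2 was farthest below for 7 members and FOXA1 2 for 5, against 8.50% and 7.46% of genes.

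The members did not vary as a block. On FOXA1 4, CALR stood 0.60, HYOU1 0.58, OS9 0.53 and CANX 0.42 above the mean of the FOXA1 arrays, while PDIA6 stood at -0.40 and SERP1 at -0.25. On GFP 3, PDIA4 stood at 0.59, TRIM13 at 0.54, EDEM1 and CALR at 0.46 and HYOU1 at 0.41, while SERP1 stood at -0.45, DNAJB11 at -0.41 and HSP90B1 at -0.28. These arrays, with FOXA1 3, were also the farthest out on the leading component of all genes, which carried 41.2% of the variance within groups. Without these 3 arrays the median difference of the members was -0.0033, and 0 members passed.

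**Figure D4:**
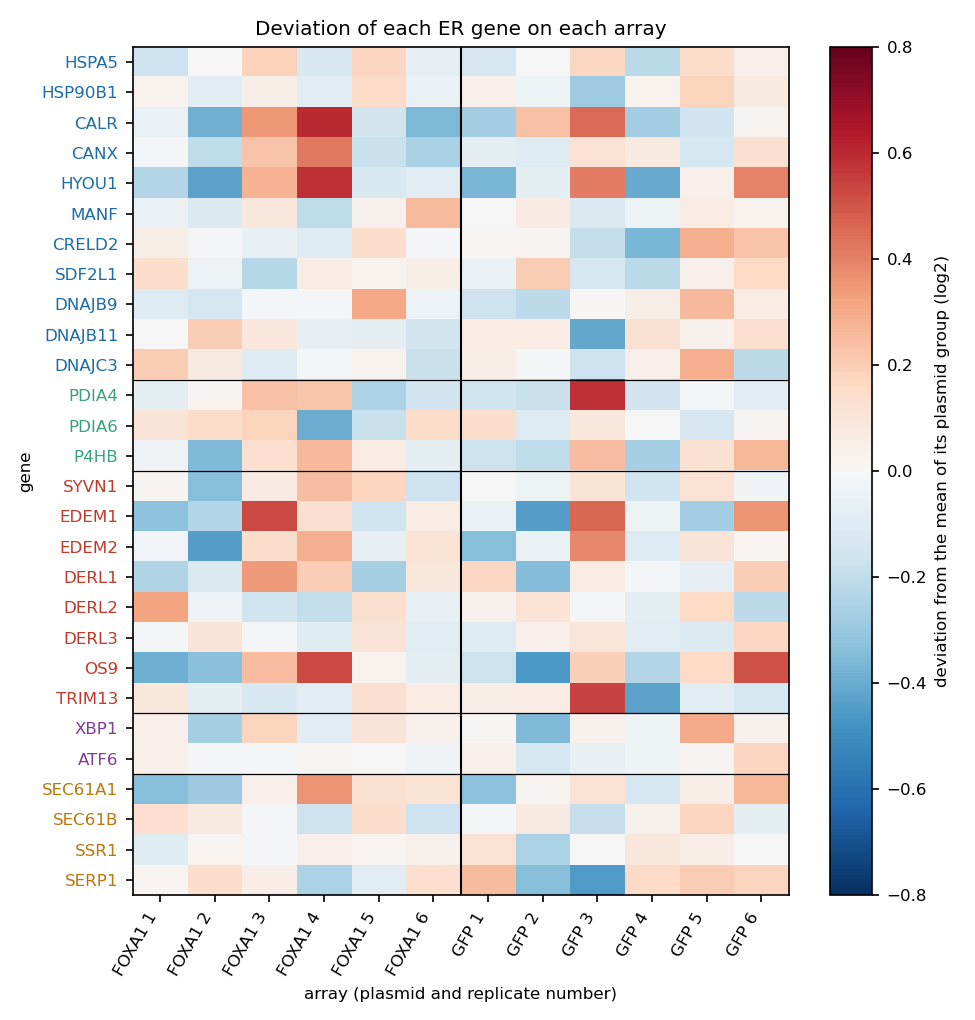
Deviation of each member from the mean of its plasmid group on each of the 12 arrays (colour, log2), with genes ordered and coloured by role and a line between plasmids. CALR, HYOU1, EDEM1, EDEM2 and OS9 are red on FOXA1 3, FOXA1 4 and GFP 3, while SERP1, DNAJB11 and HSP90B1 are blue on GFP 3.

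Both groups carry the numbers 1 to 6, and the labels do not say what a number stands for. A moderated F test of the number, with the plasmid as a term (limma, 5 degrees of freedom), called 314 of 12420 genes at an adjusted p of 0.05, or 2.53%, and 0 of 28 members. At an unadjusted p under 0.05 there were 2 members, EDEM1 and XBP1, against 15.5% of all genes. EDEM1 came nearest: it stood 0.53 and 0.46 above the group mean on FOXA1 3 and GFP 3, and at -0.23 and -0.44 on FOXA1 2 and GFP 2. Its adjusted p in limma was 0.0572. That adjusted p in limma became 0.0418 without the filter and 0.0156 with array weights, but 0.273 with median centring. With both arrays of a number left out it was 0.143 (number 2), 0.511 (number 3) and 0.171 (number 5). XBP1 deviated in the same direction on both arrays of all 6 numbers, from -0.27 and -0.35 at number 2 to 0.10 and 0.30 at number 5, with an adjusted p of 0.294 in limma.

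The arrays of a number did not always deviate together. Of the 28 members 24 deviated in the same direction on both arrays of number 1, 22 at number 5 and 20 at number 3, against 54.2%, 67.4% and 62.8% of all genes. The counts were 16 at number 2, 15 at number 6 and 10 at number 4, against 56.8%, 55.9% and 41.6% of all genes. Without both arrays of number 4 the test called 1692 genes, or 13.6%, and 3 of 28 members, a share no larger than that of all genes. These were EDEM1 (adjusted p = 0.00288 in limma), OS9 (adjusted p = 0.0191) and HYOU1 (adjusted p = 0.0211). Without number 2 it called 200 genes (1.61%), without number 3 it called 107 (0.862%) and without number 5 it called 92 (0.741%), with 0 members each time.

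Other genes of the same compartment, from lists chosen for their function, gave no call between plasmids either. Of 21 other folding genes, 16 other degradation genes, 15 other translocation and glycosylation genes and 14 further stress response genes, 0 rose and 0 fell (limma, adjusted over all genes), and 1 of the 66, the prolyl isomerase FKBP14, lay under an unadjusted p of 0.05, at 10.41 against 10.79, a difference of -0.38 ± 0.16 (SE). KDELR3, a receptor that returns escaped ER proteins, differed by -0.15, the glucosidase MOGS by 0.19, the ligase cofactor AUP1 by -0.17, FAF2 by 0.11, EDEM3 by 0.084, the oligosaccharyltransferase subunit STT3A by 0.20, TRAM1 by 0.14 and RPN2 by 0.077. The proteases that release ATF6, MBTPS1 and MBTPS2, differed by 0.18 and 0.13, and EIF2AK3, which encodes PERK, by 0.073. The medians of the 4 lists were 0.017, 0.054, 0.027 and -0.019.

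Some stress genes downstream of PERK and ATF4 differed by replicate number. Of 14 genes of the stress response list 3 passed the F test in limma, where 2.53% of all genes did: DDIT3, the pro-apoptotic factor CHOP (adjusted p = 0.000139), the pseudokinase TRIB3 (adjusted p = 0.0055) and ATF3 (adjusted p = 0.00737). ATF4 itself did not pass (adjusted p = 0.0956), nor did its targets ASNS (adjusted p = 0.0586), CHAC1 (adjusted p = 0.0901) and SESN2 (adjusted p = 0.567) in limma. These 4 were named after their values were seen. DDIT3 lay at 9.40, 8.96, 11.04, 10.11, 9.56 and 9.21 on FOXA1 1 to FOXA1 6 and at 9.33, 9.20, 11.96, 10.48, 9.44 and 9.27 on GFP 1 to GFP 6. Both arrays of number 3 were high and both of number 4 came next. TRIB3 stood at 12.45 on FOXA1 3 and 13.07 on GFP 3, above its other 10 arrays. HSPA5 also had its highest value of each group on number 3, 9.07 on FOXA1 3 and 9.02 on GFP 3, but close to FOXA1 5 at 9.06, and its adjusted p was 0.397 in limma.

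ERO1A, the oxidase that recharges the disulfide isomerases, was the 1 folding gene called (limma adjusted p = 0.000459), with 9.99 on FOXA1 3, 9.41 on FOXA1 4, 9.80 on GFP 3 and 9.29 on GFP 4 and values between 8.24 and 8.97 on the other 8 arrays. NGLY1, the glycanase that strips sugars from retrotranslocated chains, ran the other way, at 9.77 and 9.56 on FOXA1 3 and GFP 3 against 10.48 and 10.41 on FOXA1 5 and GFP 5 (limma adjusted p = 0.0448). MAN1B1, UBE2J1, SPCS3, STT3A, SSR2, MOGS and TXNDC5, the next genes of these lists by p, did not pass, with adjusted p from 0.162 (SPCS3) to 0.551 (SSR2). Hypoxia and glycolysis genes moved with the same arrays: 16 of 19 passed the F test, where 2.53% of all genes did. All 19 kept genes stood above the group mean on FOXA1 3 and on GFP 3, by a mean of 0.77 and 0.89. Like the other lists, this one was chosen with earlier results of these data known, so its count is no independent support. PFKFB4, DDIT4 and ANKRD37 had the smallest p of that list. On FOXA1 3 and GFP 3 the chaperones averaged 0.078 and -0.013, and the degradation genes 0.13 and 0.23. The 3 kept disulfide isomerases averaged 0.18 and 0.30, and all 3 stood above the group mean on both arrays. The translocation genes averaged 0.019 and -0.13, and the group of stress sensors 0.081 and -0.013. The part of the hypoxia genes in the stress gene values was not tested.

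**Figure D5:**
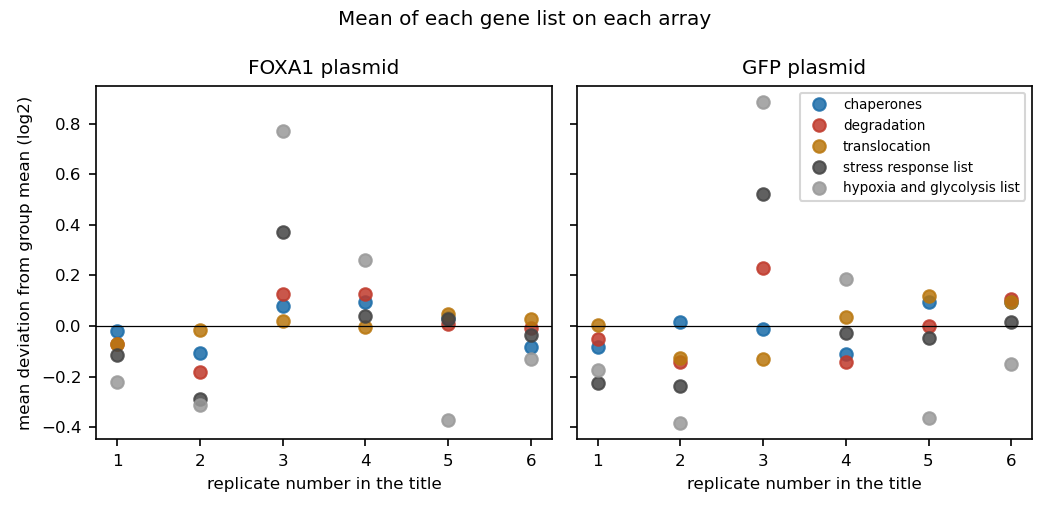
Mean deviation from the plasmid group mean (log2) of 3 role groups of members and of the stress response and hypoxia lists, by replicate number, with FOXA1 arrays on the left and GFP arrays on the right. At number 3 the hypoxia list stands at 0.77 and 0.89 and the stress response list at 0.37 and 0.52, while the chaperones stay between -0.11 and 0.096 on all 12 arrays. The disulfide isomerases, at 0.18 and 0.30 on number 3, and the stress sensors are not drawn.

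Set beside the promoter elements, the 10 kept members with an exact ERSE or ERSE-II had a median difference between plasmids of 0.035, with 8 above and 2 below 0 and a range from -0.097 to 0.22. The 15 kept members with a window but neither element had a median of 0.0086, with 9 above and 6 below 0 and a range from -0.13 to 0.18. Their spans over the 12 arrays had medians of 0.65 and 0.59. Members with an element did not follow 1 pattern over the arrays. CALR, which holds ERSE, and HYOU1, which holds ERSE-II, were high on GFP 3. On that array HSP90B1 and SERP1, which hold ERSE as CALR does, had their lowest values. As 0 of 28 members were called in either test, calls cannot tell members with an element from those without. No exact ERSE or ERSE-II was found for DDIT3, ERO1A, TRIB3 and ATF3, which followed the replicate number. For ERO1A, TRIB3 and ATF3 it is not stated here if a window was searched, and a gene without a window can hold no match. DDIT3 did hold a match when 1 of the 10 fixed letters of ERSE was allowed to differ. Such a match stood in 3 of the 58 genes of the other ER lists that had a window, and not every listed gene had one.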

How the data were processed

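Biotin-labelled total RNA of 12 LNCaP samples was read on Illumina bead arrays. The authors deposited log2 intensities in a table that its header calls non-normalized (48107 probes) and in a normalized table (47323 probes) whose 12 column medians lie between 7.4281 and 7.4292. The sources used here name neither a background correction nor a program. The normalized table was used. Probes with a value on every array and a mean over all arrays above the median of all probes (7.41) were kept, blind to group, and the brightest probe stood for each gene symbol of the platform annotation. Background was estimated as the 95th percentile (7.54) of the 784 probes found in the non-normalized table alone, which have no stated role.

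Groups came from the titles. The contrast of FOXA1 and GFP arrays was fitted in limma (version 3.58.1, under R version 4.3.3; two-sided, Benjamini-Hochberg over 12420 genes, threshold 0.05), and replicate number with limma's F test. Single members were also compared by exact permutation over 924 arrangements (smallest possible p 0.00216). The fits were also run on simulated data with independent noise for each gene and array. These data lacked a leading component like that of the real arrays, and their outcome is not given here. The number of arrays limits precision: the median half-width of a gene's 95% interval was 0.217. Members and gene lists were chosen with earlier results of these data known. All members are named, and up to 3 genes of each other ER list were taken for each test by their p. Sequences are from RefSeq (GRCh38.p14), and 28 of 32 members had a promoter window. Chip or slide was not given in the labels, so batches could not be tested. Alternatives covered normalization, filter, probe rule, moderation, array weights, replicate number as a block and left-out arrays.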

Additional observations from a re-analysis of the deposited data

Results flagged for a closer look

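Of 144 groups of 6 arrays tested for an array apart from the other 5, 15 held one, where chance gives about 7.2 for unselected groups. Part of these groups were genes picked for a small p on these same arrays, which can favour an array apart. The count above 7.2 is thus not a result. Among the members, DNAJB9 stood apart on FOXA1 5 at 10.15 (others 9.70 to 9.84), DNAJB11 on GFP 3 at 11.78 (others 12.22 to 12.32) and PDIA4 on GFP 3 at 9.43 (others 8.66 to 8.83). SSR1 was low on FOXA1 1 at 11.48 (others 11.57 to 11.62) and on GFP 2 at 11.17 (others 11.43 to 11.54). In other ER genes, TXNDC5 was high on FOXA1 4 at 12 (others 11.25 to 11.46), STT3A low on GFP 2 at 11.06 (others 11.63 to 11.95) and MBTPS2 high on GFP 1 at 9.68 (others 9.15 to 9.35). Hypoxia genes were high on the arrays numbered 3: ANKRD37 at 11.14 on FOXA1 3 and 11.51 on GFP 3, P4HA2 at 9.36 on FOXA1 3, and ADM at 8.20 on FOXA1 3 and 8.70 on GFP 3. Heat shock genes were low on GFP 3, DNAJA1 at 12.56 (others 13.37 to 13.53) and HSPH1 at 10.77 (others 11.67 to 12.19).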

How the results depend on the processing

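For FOXA1 against GFP, 0 genes and 0 members passed in all 22 alternatives, with 79 to 508 genes under an unadjusted p of 0.05 in limma. The median member difference ran from -0.0033 (GFP 3, FOXA1 3 and FOXA1 4 left out, an alternative chosen after seeing the data) to 0.051 (without GFP 5). Of 28 members 14 kept their sign throughout and 14 turned in at least 1 alternative. With median centring MANF lay at -0.024, DNAJB9 at 0.024, ATF6 at 0.031 and SEC61B at -0.038. With a mean over probes DERL3 lay at 0.032. With array weights CALR lay at -0.035, CANX at -0.023, DNAJB11 at -0.0011, DERL3 at 0.0067 and SEC61B at -0.020. Without the 3 arrays together CALR lay at -0.14, CANX at -0.10, DNAJB11 at -0.028, DERL1 at -0.022, DERL3 at 0.026 and SEC61A1 at -0.021. With single arrays left out the ranges were -0.012 to 0.065 (HSPA5), -0.12 to 0.095 (CALR), -0.045 to 0.092 (CANX), -0.044 to 0.046 (MANF), -0.067 to 0.063 (CRELD2), -0.11 to 0.0051 (DNAJB9), -0.024 to 0.087 (DNAJB11), -0.064 to 0.059 (P4HB), -0.043 to 0.013 (DERL3), -0.020 to 0.11 (XBP1), -0.058 to 0.0053 (ATF6), -0.016 to 0.12 (SEC61A1) and -0.029 to 0.043 (SEC61B). The cause was not tested. The replicate number test called 115 genes with median centring and 1014 with array weights, and 1 member (EDEM1) without the filter and with array weights; with both arrays of a number left out it called 92 to 1692 genes and 0 to 3 members. Same-numbered arrays had correlations of their deviations of 0.20, 0.27, 0.53, -0.27, 0.64 and 0.25 for numbers 1 to 6 over all genes, and at 2 of 6 numbers each array correlated best with its own number, so the numbers were not taken as pairs. With the replicate block 0 genes and 0 members passed, and 335 genes lay under an unadjusted p of 0.05 against 203 without it. Signals near background (DERL3, PDIA3, SEL1L, ERN1) say little about the transcript.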

Other observations

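Outside the ER, a list of heat shock genes, mostly of cytosolic chaperones and with the mitochondrial chaperonin pair HSPD1 and HSPE1, had 13 of 13 fitted differences above 0, against 53.8% of all genes, with a median of 0.15. None passed the test in limma (0 rose, 0 fell, and 0 lay under an unadjusted p of 0.05). HSPA1B, an inducible HSP70, had the smallest p of the list, with 12.92 in the FOXA1 arrays and 12.58 in the GFP arrays. HSP90AB1 differed by 0.26 ± 0.13 (SE, n = 6 per group) and HSPA8, the constitutive HSC70, by 0.20 ± 0.099 (SE). The list's mean stood at -0.32 on GFP 3 and at 0.24 on GFP 6, relative to the GFP arrays. Values of HSP90B1 and SERP1, which were also low on GFP 3, were not tested against this list.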
